A study of Mus musculus with 2 samples.

Results

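The genes described here are the ligands and receptors of axon guidance: the ephrins and their Eph receptors, the semaphorins with their plexin and neuropilin receptors, the Slits and Robos, the netrins and netrin-Gs, and the netrin receptors Dcc and Unc5. They were chosen by name, as every non-control probe whose gene name on the array is one of these families' symbols. The rule itself uses no measured value, but it was set with earlier results of these data known. The rule took 71 genes (37 ligands and 34 receptors) of 32942 gene names, and 177 probes of 56605. RNA came from 46C cells, mouse embryonic stem cells in which GFP reports on Sox1, on day 5 of neural differentiation, grown as floating aggregates in medium with knockout serum replacement. One group was wild type (WT) and the other KO-Linc1548, labelled as a knockout of a long intergenic non-coding RNA; both shared the parent line, reporter, medium and day. The labels do not say how the knockout was made or whether it is 1 clone. Each group is 1 one-colour Agilent array, so differences have no replicates behind them, no test was possible, and a fixed limit of 2-fold is used throughout. Higher and lower always mean knockout compared with wild type, and paired signals are given with wild type first.

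Guidance molecules steer the growing tip of an axon. Ligands on cell surfaces or in the matrix bind receptors on the growth cone, which turn the actin cytoskeleton towards or away from the source. In the neural tube the floor plate, a strip of ventral midline cells, is a classic source of netrin-1 and Slits, and many of the same molecules also act outside the nervous system in vessels, epithelia and cell sorting. A gene was counted as measured where at least 1 of its probes lay well above background on both arrays, and its value is the median log2 difference of those probes. Signals are Agilent processed intensities scaled so that the 75th percentile of both arrays is 751. The lowest scaled signal called well above background was 21.3 in wild type and 30.5 in knockout cells.

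The guidance genes were mostly lower on the knockout array. Of the 71 genes, 64 were measured on both arrays, 4 only on the wild type array (beside 4.82% of all gene names), 0 only on the knockout array (beside 2.9%) and 3 on neither. Among those 4, Epha10 and Ntng2 (24.5 and 27.0 in wild type cells) read under the lowest signal called above background in knockout cells, 30.5. Of the 64, 26 (40.6%) were at least 2-fold lower, beside 8.81% of all 18671 measured genes, and 5 (7.81%) were at least 2-fold higher, beside 11.5% of all genes. The other 33 lay within 2-fold. The median log2 difference was −0.74 against 0.10 over all measured genes, and 48 of the 64 lay below 0, beside 8067 of all 18671. A lower signal from bulk RNA does not tell fewer cells of a type from less RNA per cell. Ligands and receptors went the same way: 13 of 34 measured ligands were at least 2-fold lower and 1 higher (median −0.58), and 13 of 30 measured receptors were lower and 4 higher (median −0.81). The 5 that were higher were the receptors Epha1, Epha2, Robo4 and Unc5b and the ligand Sema4a. The level of all values depends on the scaling: centring on spike-in RNA added to both samples moved every difference down by 0.39, to 37 members lower and 5 higher, with 16% of all genes lower and 7.44% higher.

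**Figure D1:**
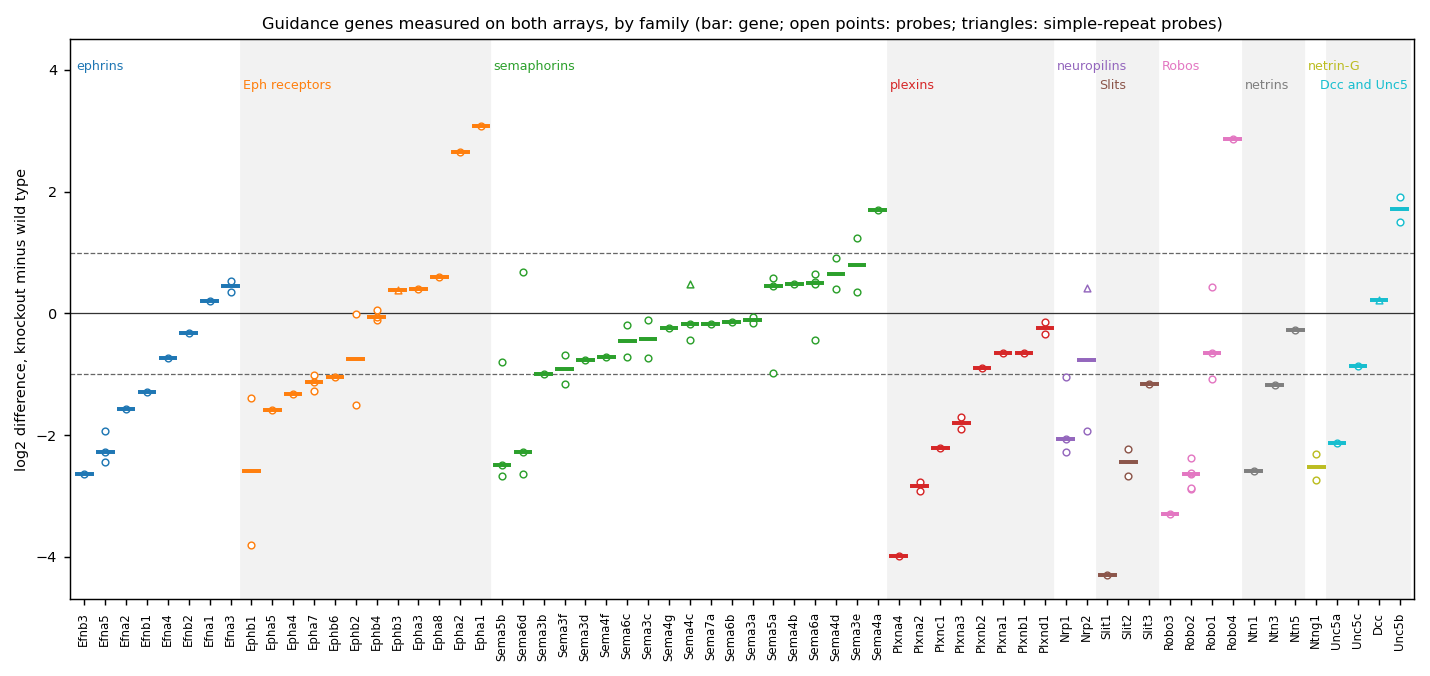
Log2 difference (knockout minus wild type, y axis) of the 64 guidance genes measured on both arrays, grouped by family on the x axis and ordered within it. Bars are gene values, open points are single probes, triangles are probes with a simple repeat, and the dashed lines mark 2-fold. All 8 plexins and all 3 Slits lie below 0 (beside 8067 of all 18671 measured genes), and Epha1, Epha2 and Robo4 stand highest.

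**Figure D2:**
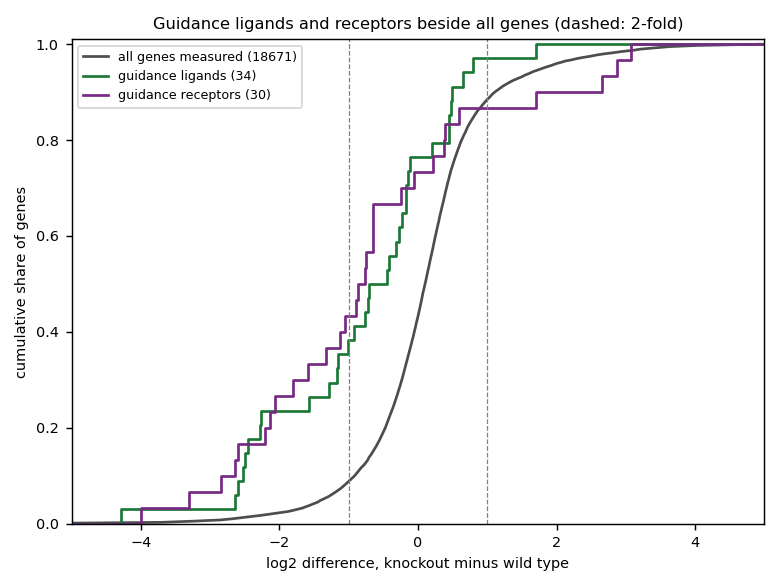
Cumulative share of genes (y axis) by log2 difference (x axis) for the 34 measured guidance ligands, the 30 measured receptors and all 18671 measured genes, with dashed lines at 2-fold. Both guidance curves run left of the curve of all genes over most of the range, and the receptor curve crosses to its right at the upper end, where 4 receptors lie above 1.

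The cultures also differed in their cell type markers. The marker lists were set with earlier results of these data known, so that choice may have shaped their counts. For comparison, 8.81% of all measured genes passed the limit downwards and 11.5% upwards. All 6 neural progenitor markers and all 6 neuronal markers were at least 2-fold lower on the knockout array, with summed scaled signals of 75165 against 6192 and 23895 against 6063. All 6 pluripotent stem cell markers and all 5 primed epiblast markers were at least 2-fold higher, with sums of 7043 against 56878 and 13548 against 68870. Over all marker lists Hes5 (log2 difference −4.78) and Dcx (−4.41) were among the lowest, and the highest were Tdgf1 (4.54), Lefty2 (4.46) and Zfp42 (3.50). Every marker of the neural progenitor, neuronal, pluripotent and epiblast lists was measured on both arrays. Of the other lists, neural crest had 1 marker at least 2-fold higher and 1 lower of 6, endoderm 3 higher and 0 lower of 6, and paraxial and lateral mesoderm 0 of 4 measured in either direction. Under spike-in centring all 3 endoderm calls were lost (Afp 0.998, Cer1 0.94 and Ttr 0.90), and the mesoderm marker T came to −1.01. Their part in the guidance gene differences was not tested. The probe nearer the 3′ end had the lower log2 difference in 10 of 12 guidance transcripts with distant probe pairs (median −0.30), beside 2404 of 3451 over all transcripts (median −0.17), and the part of this gradient in the results was not tested either.

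All 3 Slits were at least 2-fold lower, beside 8.81% of all measured genes. Slits are large secreted proteins of the midline that repel axons through Robo receptors. Slit1 had the lowest value of all 71 genes: its single probe read 6999 in wild type and 357 in knockout cells, 19.6-fold lower (log2 difference −4.29). Slit2 read 4070 against 868 and 364 against 57.5 in its 2 measured probes, a log2 difference of −2.45. A further 3 Slit2 probes lay above background only in wild type cells, and the brightest of them read 131 against 16.6, at least 4.29-fold lower. Slit3 read 990 against 445, a log2 difference of −1.15. The first 30 bases of the Slit1 probe are printed with those of the lowest plexin, the highest Eph receptor and the single Robo that was higher, since each of these gene values rests on 1 measured probe; positions are those of the whole 60-base probe on mm9.
Slit1, chr19:41674749-41674808, minus strand: gccatgccctctctcaaagtgccttgcaca
Plxna4, chr6:32094602-32094661, minus strand: ctcaccttgaataccaaccttttgaaagaa
Epha1, chr6:42308583-42308642, minus strand: tcaatcagaactctgcctttgaaccaagga
Robo4, chr9:37221537-37221596, plus strand: accaatgcgctattctcattctaccgccac

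The Robo receptors split. Robo3, which in commissural neurons lets axons reach and cross the midline, read 2847 against 289 in its measured probe, 9.85-fold lower (log2 difference −3.30), and its other probe was above background only in wild type cells (74.6 against 9.75, at least 2.45-fold lower). Robo2, a repulsive Slit receptor of neurons, was lower in all 5 measured probes, which ranged from −2.89 to −2.37 (gene value −2.63, or −1.52 with normexp background correction). Its brightest probe read 557 against 91.0. Robo1 lay within 2-fold at −0.65 (−1.05 under the alternative that gave the lowest value). Its measured probes ran from −1.07 to 0.44, the last from a dim probe (37.4 against 50.7). Another 2 Robo1 probes were above background only in wild type cells, at 38.9 against 13.6 and 34.7 against 9.28. Robo4, the Robo of endothelial cells, went the other way: its single probe read 71.2 in wild type and 521 in knockout cells, 7.31-fold higher (log2 difference 2.87, or 2.09 with normexp). Of the 6 endothelial markers, 3 were measured on both arrays: Tek was higher (25.0 against 108), Pecam1 read 132 against 241 and Kdr 84.1 against 77.7, while Cdh5 and Emcn were above background only in wild type cells and Tie1 on neither array. The summed signal of the 3 was 241 against 427; the part of such cells in the Robo4 value was not tested.

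Robo3 and Robo4 are neighbours on chromosome 9 and are read towards each other. On mm9 the Robo4 probe ends 2164 bases before the measured Robo3 probe begins, yet the neighbours differed from wild type in opposite directions. The 250 bases before each gene's start are printed from RefSeq (GRCm38.p6), with those of the Slit ligand Slit2 and the Eph receptor Epha2 as a second lower and higher pair; these 4 were chosen after the values were seen. CG pairs are in capitals.
Robo3, chr9:37433176-37433425, minus strand: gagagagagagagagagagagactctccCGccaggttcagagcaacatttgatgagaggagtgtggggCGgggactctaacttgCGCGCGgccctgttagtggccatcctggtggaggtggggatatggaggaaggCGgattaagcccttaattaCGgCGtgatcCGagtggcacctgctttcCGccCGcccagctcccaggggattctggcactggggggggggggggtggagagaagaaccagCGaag
Robo4, chr9:37401722-37401971, plus strand: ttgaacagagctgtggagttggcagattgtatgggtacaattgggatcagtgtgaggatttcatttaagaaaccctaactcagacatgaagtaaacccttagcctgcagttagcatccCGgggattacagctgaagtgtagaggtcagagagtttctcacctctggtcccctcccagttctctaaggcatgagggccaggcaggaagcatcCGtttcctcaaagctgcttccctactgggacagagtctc
Slit2, chr5:47982905-47983154, plus strand: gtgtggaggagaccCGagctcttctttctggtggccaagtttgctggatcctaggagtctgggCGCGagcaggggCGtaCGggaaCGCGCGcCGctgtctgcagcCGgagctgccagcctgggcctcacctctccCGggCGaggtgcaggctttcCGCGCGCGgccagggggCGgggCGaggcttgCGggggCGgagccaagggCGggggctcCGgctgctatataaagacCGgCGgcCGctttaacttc
Epha2, chr4:141300971-141301220, plus strand: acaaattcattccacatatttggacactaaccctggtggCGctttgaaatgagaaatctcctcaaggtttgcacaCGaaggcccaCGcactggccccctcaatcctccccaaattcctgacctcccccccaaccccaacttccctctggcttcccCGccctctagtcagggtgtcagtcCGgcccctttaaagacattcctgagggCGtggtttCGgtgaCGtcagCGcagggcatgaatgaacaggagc

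The Robo3 window held 12 CG pairs and the Slit2 window 25, while the windows of Robo4 and Epha2 held 2 and 9. The groups overlapped: windows of genes at least 2-fold lower held 4 to 35, and those of genes at least 2-fold higher 2 to 27. Over the guidance genes, 61 of 71 matched the promoter table, with 77 windows. The median was 18 CG pairs in the 25 windows of genes at least 2-fold lower, 16 in the 38 windows of genes within 2-fold, and 7.5 in the 8 windows of genes at least 2-fold higher; over all 32851 windows it was 6. The 8 windows of higher genes come from 5 genes, with 2, 3, 6 and 13 CG pairs for Sema4a. The others held 27 for Unc5b, 9 for Epha1, 9 for Epha2 and 2 for Robo4. Windows of 1 gene can overlap, and these counts are a description. The POU octamer ATGCAAAT was in 0 of the 77 windows and in 1.6% of all windows (both strands searched, here and below). The SOX core ACAATG was in 7 (9.09%, beside 3512 of all 32851 windows), among them windows of Ephb1, Plxnc1 and Sema4a. The E-box CAGCTG, a site of proneural factors, was in 12 (15.6%, beside 13% of all); among the 21 lower and 5 higher genes that have a window, these were Robo2 and Robo4. Each motif was counted on its own, and a match is a run of letters, not a measured binding site.

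Of 3 measured netrins, 2 were at least 2-fold lower (66.7%, beside 8.81% of all measured genes) and 1 lay within 2-fold. Netrin-1 (Ntn1), the secreted cue that draws commissural axons to the floor plate, read 3607 against 596, 6.05-fold lower (log2 difference −2.60). Ntn3 read 517 against 229 in its measured probe (−1.17, or −0.96 and within 2-fold with normexp), and its other probe lay above background only in wild type cells (68.0 against 21.95, at least 2.23-fold lower). Ntn4, a netrin of basement membranes, was above background only in wild type cells, at 64.6 against 9.30, at least 2.12-fold lower. Ntn5 read 66.4 against 55.0 in 1 measured probe, a difference of −0.27, its second probe was above background on neither array, and the gene turned to 0.10 with normexp and 0.24 without the filter on dim probes. Of the 5 floor plate markers, 4 passed the limit downwards, Shh, Spon1 and Foxa2 among them. Foxj1 stood at 0.33 (−0.06 under spike-in centring). None of the 5 lacked a value, and their summed signal was 32198 against 7346. Low values were not particular to this list: its median was −3.13, beside −2.86 for neural progenitor and −2.67 for neuronal markers. The part of any of these lists in the Slit and netrin values was not tested.

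The netrin-Gs are membrane-anchored relatives of the netrins that bind the NGL adhesion proteins rather than Dcc. Ntng1 read 2098 against 423 and 471 against 70.4 in its measured probes (gene value −2.53), and another probe was above background only in wild type cells (181 against 28.1, at least 5.95-fold lower). Ntng2 was above background only in wild type cells and in 1 of 4 probes, at 27.0 against 6.70. That signal is below the lowest signal called above background on the knockout array, so no fold is given.

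The netrin receptors did not move together. Dcc, the receptor for attraction to netrin-1, has 6 probes. On its own chromosome, 18, all 5 were above background only in wild type cells. The brightest of these read 141 against 30.6, 4.61-fold lower as read. The others read 73.8 against 6.60, 61.9 against 13.3, 42.8 against 16.3 and 40.8 against 6.91, or at least 2.42-, 2.03-, 1.40- and 1.34-fold lower. The remaining probe consists of a GAA repeat, is placed by the array on chromosome 7, and read 40355 against 46746. It alone sets the gene's value of 0.21, and without the filter on dim probes the value was −2.21. Unc5a, a receptor for repulsion from netrins, read 1532 against 348 (log2 difference −2.14). Unc5b, which also acts in vessels, was the only gene of this group at least 2-fold higher, with 380 against 1429 and 1341 against 3801 in its probes (gene value 1.71). Unc5c lay at −0.86, from 71.4 against 39.3, and Unc5d was above background on neither array (4.31 against 6.38). The median of the 4 measured genes, −0.33, ranged from −0.86 to 0.21 over the alternatives. The 0.21, under the stricter filter on dim probes, is the Dcc value that its repeat probe alone sets. No direction is given for the group.

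**Figure D3:**
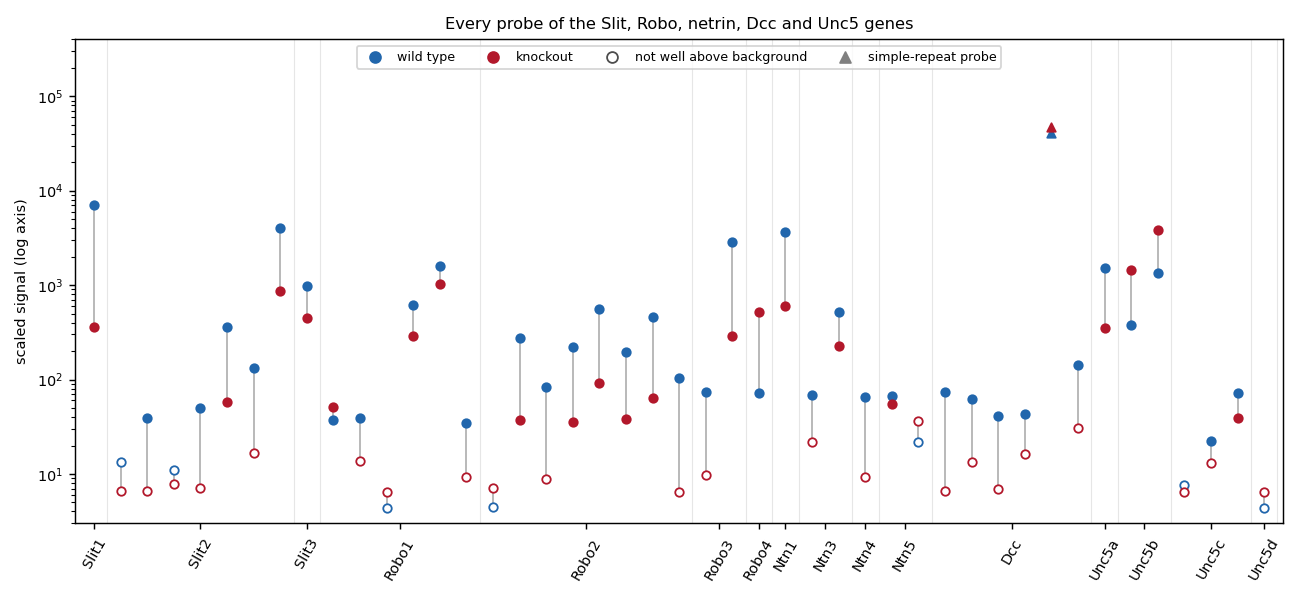
Scaled signal (log y axis) of every probe of the Slit, Robo, netrin, Dcc and Unc5 genes on the wild type array (blue) and the knockout array (red); a grey line joins the values of 1 probe, open symbols are not well above background and triangles are simple-repeat probes. The blue point is the upper one for Slit1, Robo3, Ntn1 and Unc5a and the lower one for Robo4 and both Unc5b probes, and 5 Dcc probes have an open red point.

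In all, 4 guidance probes hold a tract of 18 or more bases of a 1-, 2- or 3-base repeat. Besides the Dcc probe these are probes of Nrp2, Sema4c and Ephb3, and their sequence is shown because the values of those genes rest on it in whole or in part. The stretches below are 30 bases of each probe with the repeat in capitals, and for Nrp2 and Sema4c the first 30 bases of a measured probe without a repeat follow; positions are of the whole probe on mm9.
Nrp2, chr1:62843061-62843120, repeat probe: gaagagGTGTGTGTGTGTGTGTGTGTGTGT
Nrp2, chr1:62865129-62865188, other probe: tgagccagatcacgggaactcgagagcttt
Sema4c, chr1:36605998-36606057, repeat probe: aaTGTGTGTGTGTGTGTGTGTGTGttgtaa
Sema4c, chr1:36606063-36606122, other probe: tgcaaggaagaggtttcaagatgtgggcgt
Ephb3, chr16:21223165-21223224, repeat probe: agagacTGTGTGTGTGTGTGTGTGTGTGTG

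The 3 TG-repeat probes share runs of 23 to 28 bases, whereas probes of different guidance genes otherwise shared at most 12. They read 45459 against 60598 (Nrp2), 55038 against 76722 (Sema4c) and 42238 against 54887 (Ephb3), slightly higher on the knockout array, like the Dcc repeat probe; under spike-in centring the Ephb3 and Dcc values turned to −0.01 and −0.18. Array-wide, 153 of 160 probes with such a tract (95.6%) were measured on both arrays, beside 55.6% of other probes, and of the 153, 0 were lower and 11 higher by 2-fold or more, beside 2661 lower and 3286 higher of 31383 other probes. What these probes bind was not tested. The Ephb3 value of 0.38 rests on its repeat probe alone.

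**Figure D4:**
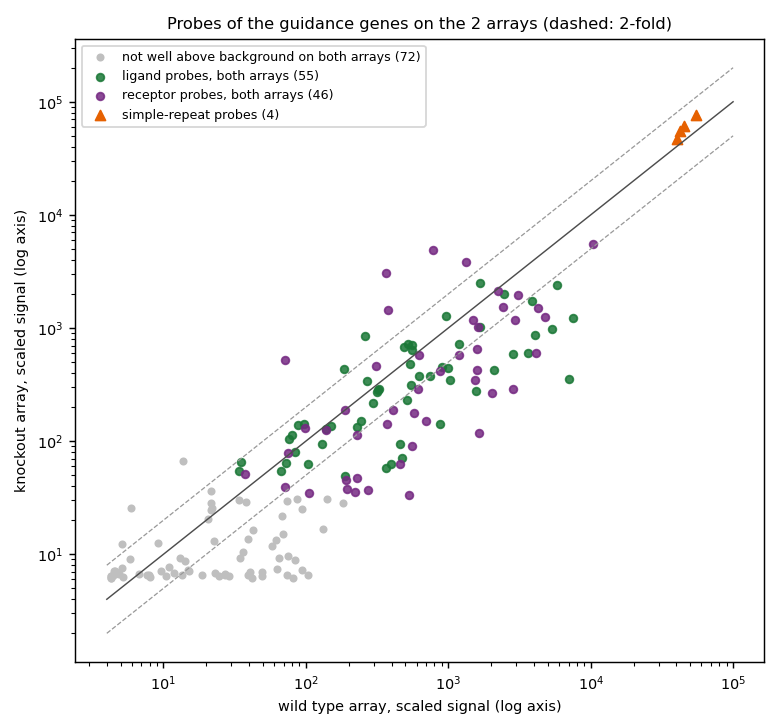
Scaled signal of the 177 guidance probes on the wild type array (x axis, log) and the knockout array (y axis, log), with a solid line at equal signals and dashed lines at 2-fold. Ligand probes (green) and receptor probes (purple) lie mostly below the solid line, the 4 simple-repeat probes (orange triangles) lie just above it at the bright end, and 72 grey probes were not well above background on both arrays.

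At the level of single probes, 47 of the 105 guidance probes measured on both arrays had a signal at least 2-fold lower, beside 8.62% of all such gene probes, and 7 were at least 2-fold higher, beside 10.3%. A further 35 of the 177 were above background only in wild type cells, beside 5.62% of all gene probes, and 1, an Epha1 probe, only in knockout cells, beside 2.73%. The lowest signal so called was 21.3 in wild type and 30.5 in knockout cells. An unchanged probe between these can thus be called in wild type cells alone. Of the 27 guidance genes with several measured probes, 9 had probes spanning over 1 on the log2 scale and 7 had probes on both sides of 0, while 0 had probes past 2-fold in both directions. Spots of the same probe varied little, with an SD of 0.096 for a log2 difference, which covers error within an array only.

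Eph receptors are receptor tyrosine kinases that bind ephrins on neighbouring cells, and signals pass into both cells. Of 12 measured Eph receptors, 5 (41.7%) were at least 2-fold lower, beside 8.81% of all measured genes, and the median was −0.41. Another 2 (16.7%) were at least 2-fold higher, so with 12 genes this count lies near the 11.5% of all measured genes. The higher ones were both EphA receptors. Epha1 read 363 against 3049, 8.41-fold higher (log2 difference 3.07, the highest of the 71 genes), and its other probe was above background only in knockout cells (13.7 against 66.8, at least 3.14-fold higher). Epha2, an ephrin-A receptor of epithelia and early embryonic cells, read 777 against 4879, 6.28-fold higher (2.65). The pluripotent stem cell and primed epiblast markers given above were higher on the same array; their part in these values was not tested.

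The 3 EphA receptors that were at least 2-fold lower are ones that guide axons in topographic maps and motor pathways. Epha4, which binds ephrins of both classes, read 2920 against 1167 (log2 difference −1.32). Epha7 read 1584 against 657, 410 against 188 and 230 against 114 in its measured probes (−1.13), and another probe was above background only in wild type cells (94.0 against 25.0, at least 3.08-fold lower). Epha5 rests on 1 measured probe, 105 against 34.8 (−1.59), close to background on the knockout array; 3 of its other 5 probes were above background only in wild type cells. Correcting background with normexp, which damps differences of dim probes, brought Epha5 to −0.50 and Epha7 to −0.78, both within 2-fold. Epha3 lay at 0.40 from 1 probe (99.1 against 131), but 2 other Epha3 probes were above background only in wild type cells, at 93.6 against 7.32 and 49.5 against 6.47, at least 3.07- and 1.62-fold lower. Without the filter on dim probes its value was −1.27, so its probes give no common direction. Epha8 lay at 0.59. Epha10 was above background only in wild type cells, at 24.5 against 6.41, under the lowest signal called above background on the knockout array, so no fold is given; its second probe, like all 3 of Epha6, was above background on neither array.

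Among the EphB receptors, which bind ephrin-Bs, Ephb1 was lowest at −2.60 (−3.80 from its brightest probe), with probes that read 1640 against 118 and 374 against 143 and so differed in size but not in direction. Ephb6, which lacks kinase activity, read 869 against 420 (−1.05). Its second probe was above background only in wild type cells, but at 33.7 against 30.01 the signals are close, so no fold is given. The Ephb6 value sits at the limit: normexp gave −0.91 and no filter gave −0.61. Ephb2 lay at −0.75, the middle of a probe at −1.50 (4249 against 1503) and a probe at −0.01 (189 against 188). Ephb4, which pairs with ephrin-B2 in vessels, lay at −0.06, with 3 probes from −0.11 to 0.06.

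Ephrins are the membrane-bound ligands, with a lipid anchor in the A class and a transmembrane tail in the B class. Of 8 measured ephrins 4 were at least 2-fold lower (50%, beside 8.81% of all measured genes) and 0 higher (beside 11.5%), with a median of −1.01. Efnb3, an ephrin of the neural midline that acts as a barrier to axons, read 7570 against 1217, 6.22-fold lower (log2 difference −2.64). Efna5, a repellent in topographic maps, read 5328 against 976, 2854 against 592 and 189 against 49.4 in 3 probes that ranged from −2.45 to −1.94 (−2.27). Efna2 read 1021 against 344 (−1.57) and Efnb1 5825 against 2381 (−1.29). The other 4 were nearer 0, at −0.73 for Efna4, −0.32 for Efnb2, 0.20 for Efna1 and 0.45 for Efna3, the highest, with 267 against 341 and 97.7 against 142 in its measured probes. The sign of Efna1 turned under spike-in centring (−0.19).

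Semaphorins were the family with the smallest share of genes at least 2-fold lower. Of 19 measured, 3 were at least 2-fold lower (15.8%, beside 8.81% of all genes), 1 was higher (5.26%, beside 11.5%) and the median was −0.18, so with 19 genes the counts lie near those of all genes. They are cues, mostly repellent, that share a sema domain, secreted in class 3 and held on the membrane in classes 4 to 7. Sema5b, a membrane semaphorin, was lowest, with probes that read 1569 against 278, 398 against 62.2 and 548 against 314, the last within 2-fold. Its gene value was −2.50, or −1.65 with normexp or with RefSeq-named probes only. Another Sema5b probe was above background only in wild type cells (86.4 against 30.55, 2.83-fold lower as read). Sema6d, whose receptors include Plxna1, had a value of −2.27 from probes that did not run together: 879 against 142 and 459 against 94.9, but 34.1 against 55.0 in the last. With RefSeq-named probes only, an alternative added after the data were seen, Sema6d came to −0.97; it was −1.50 with normexp and −1.41 as a mean over probes. Sema3b, a secreted ligand of the neuropilins, read 907 against 453 and stood on the limit at −1.003, with −0.99 after loess and −0.89 with normexp. Sema4a, the single semaphorin above the limit, read 258 against 842, 3.26-fold higher (1.70).

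The remaining secreted semaphorins lay within 2-fold: −0.92 for Sema3f, −0.76 for Sema3d, −0.42 for Sema3c, −0.11 for Sema3a, the founding collapsin of the class, and 0.79 for Sema3e, whose probes gave 0.35 and 1.23. Sema3g was above background only in wild type cells and in 1 of 2 probes, at 57.7 against 11.8, at least 1.89-fold lower. Sema3a turned to 0.14 with normexp, so no direction is given for it. In class 4 the values were −0.71 for Sema4f, −0.23 for Sema4g, −0.18 for Sema4c (probes at −0.44 and −0.18, and the repeat probe at 0.48), 0.48 for Sema4b and 0.65 for Sema4d, a ligand of Plxnb1. Sema5a lay at 0.45 with probes from −0.97 to 0.58. It turned to −0.20 under the stricter filter and to −0.97 with RefSeq-named probes only, so no direction is given for it. In classes 6 and 7 the values were −0.45 for Sema6c, −0.17 for Sema7a, −0.14 for Sema6b and 0.50 for Sema6a.

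The plexins, through which semaphorins act on small GTPases, had a lower median than the semaphorins themselves. All 8 measured plexins lay below 0, beside 8067 of all 18671 measured genes. Of the 8, 4 were at least 2-fold lower (50%, beside 8.81% of all measured genes), with a median of −1.35. Plxna4, a partner of neuropilins for class 3 semaphorins, read 532 against 33.4, 15.9-fold lower (log2 difference −3.99). The knockout signal is close to the lowest called above background, 30.5, and normexp gave −2.38. Plxna2 read 4112 against 604 and 2020 against 267 (−2.84), and another probe was above background only in wild type cells (63.0 against 7.35, at least 2.07-fold lower). Plxna3 read 1584 against 424 and 579 against 177 (−1.81). Plxnc1, the receptor of Sema7a, read 700 against 152 (−2.21, or −1.31 with dim probes kept), and a second probe was above background only in wild type cells (73.8 against 29.8, at least 2.42-fold lower). The plexins within 2-fold were Plxnb2 (−0.90), Plxna1 (−0.65), Plxnb1 (−0.65) and, highest, Plxnd1 (−0.24; 1503 against 1187 and 139 against 127), a receptor of Sema3e that also acts in vessels. Plxnb3 was above background on neither array. Past the limit were 3 of 4 A-type plexins and 0 of 2 measured B-type plexins, but this contrast depends on the scaling: Plxnb2 came to −1.002 with quantile and −1.02 with loess scaling, and spike-in centring put Plxna1, Plxnb1 and Plxnb2 past it at −1.04, −1.04 and −1.29.

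Neuropilins bind class 3 semaphorins and VEGF and signal through A-type plexins. Nrp1 was lower in all 3 measured probes, at 1183 against 576, 229 against 47.4 and 190 against 45.7 (gene value −2.06, probes from −2.27 to −1.04; −1.04 with normexp and from the brightest probe), and 1 further probe was above background only in wild type cells (27.1 against 6.59), with no fold given. The Nrp2 value of −0.76 is the middle of 2 unlike probes. The probe without a repeat read 4800 against 1253 (−1.94), the TG-repeat probe gave 0.41, and another was above background only in wild type cells (69.1 against 15.0, at least 2.27-fold lower). Without simple-repeat probes, an alternative added after the data were seen, Nrp2 was at −1.94.

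Partners and effectors of these receptors were counted from a list of 70 genes, such as adhesion co-receptors, collapsin response mediators and actin regulators. That list was also set with earlier results known, which may have shaped its counts. Of 64 measured, 25 were at least 2-fold lower and 1 higher (median −0.60), beside 8.81% lower, 11.5% higher and a median of 0.10 over all measured genes. The lowest were Gap43, a growth cone protein (log2 difference −3.43), Dpysl4, a collapsin response mediator (−2.98), and Chl1, an adhesion partner of neuropilin-1 (−2.64). The highest were Ablim3, an actin-binding protein (1.46), Enah, an actin regulator of the growth cone (0.96), and the chemokine Cxcl12 (0.89).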

How the data were processed

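Total RNA of 2 samples was labelled with Cy3 and hybridised to 1 Agilent array each, per the labels. The deposited files hold spot intensity from Agilent Feature Extraction 10.7.1.1, background-subtracted and detrended within each array per the file headers, with no normalization between arrays; both arrays share 1 slide and 1 scan. Probe positions are on mm9. Outlier spots were left out, so 16 of 56605 probes had no value. From each array's log2 intensities its own 75th percentile was subtracted (signals of 864 for wild type and 652 for knockout), and signals were put on a common scale of 751. A probe counted as measured if a share of 0.5 or more of its spots was marked well above background by the software on each array, and no probe was saturated. For probes above background on 1 array, a bound is given. It is the signal there over the other array's lowest signal above background, or over the probe's own where that is higher. In the latter case the ratio is given as read. Some probes not called above background lie above that lowest signal, so the bound is not a detection limit. No test fits 1 array per group, and the number of arrays limits the precision.

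Every member is accounted for; by rule, members past 2-fold, the highest and lowest of each family and those on 1 array are given with signals. Of the marker lists, the 3 highest and 3 lowest genes are named, except an item not reported here, which counts include. Members and gene lists were chosen with earlier results of these data known. Alternatives were quantile, loess, spike-in and normexp scaling (limma 3.58.1, R 4.3.3), 2 other filters and 2 other gene summaries, plus 2 added after the data were seen. Steps were tested on simulated data. No probe is named Linc1548, so the label of the knockout array was not checked against its target. RefSeq names (GRCm38.p6) were the array's own for all 177 probes.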

Additional observations from a re-analysis of the deposited data

How the results depend on the processing

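Under 8 alternatives and 2 more chosen after seeing the data, no guidance gene past 2-fold changed direction. The count of genes at least 2-fold higher stayed at 5 under all 10, and the count lower ranged from 21 with normexp to 37 with spike-in centring. The median of −0.74 moved to −1.13 with spike-in centring, which shifts all genes, and to −0.63 with normexp, which compresses dim signals. Of 31 genes past 2-fold, 25 stayed past it under every alternative that gave a value (the others were Epha5, Epha7, Ephb6, Sema3b, Sema6d and Ntn3), and 20 of 33 within 2-fold stayed within. Part of this stability was fixed in advance. Only 27 of the 64 measured genes had several measured probes, so the mean over probes and the brightest probe could not move the rest. For a gene with 1 measured probe, the stricter filter and the 2 added alternatives could only keep or drop its value. The spike-in shift of 0.39 could not turn the sign of a gene past 2-fold. The sign turned under at least 1 alternative for 9 genes within 2-fold: Efna1, Epha3, Ephb3, Sema3a, Sema4c, Sema5a, Nrp2, Ntn5 and Dcc. Over the 10 families, the sign of the median turned for Dcc and Unc5 alone (0.21 under the stricter filter, the value that the Dcc repeat probe sets). No paired analysis was possible because each group has 1 array, and no array could be left out. Probes near background, such as those of Plxna4, Epha5, Ntng2 and Epha10, limit what can be read.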
